A study of Mus musculus with 6 samples.

Results

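Fibroblasts in which no transcript of Pi16 or Cd248 was counted were described among EGFP-positive cells of the mouse heart. Pi16, a peptidase inhibitor, and Cd248, the membrane glycoprotein endosialin, mark fibroblasts of the adventitia and connective tissue sheaths in many organs. Fibroblasts between the muscle fibres build basement membrane and interstitial matrix. In these data 91.6% of fibroblasts held a transcript of either gene, and where in the heart a cell lay was not recorded. In the heart most fibroblasts descend from the epicardium, the outer mesothelial sheet, which expresses the transcription factor Wt1 during development.

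The cells were selected on their own transcript counts. A barcode entered with at least 1000 UMIs (unique molecular identifiers, each counting 1 captured transcript). Where the same barcode sequence occurred in several libraries, the row with the most UMIs was kept. A fibroblast had at least 1 UMI of 4 or more of the 7 genes Col1a1, Dcn, Lum, Dpep1, Pdgfra, Gsn and Dpt, and at most 1 UMI of the mesothelial genes Msln and Upk3b together. Of 12493 such barcodes, from 18283 deposited, 1213 were fibroblasts, and 102 of these held no UMI of Pi16 and none of Cd248. The other 1111 fibroblasts are called Pi16/Cd248-positive here and served as the comparison.

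All mice were C57BL/6, aged 3 to 6 months. The 3 control libraries came from Wt1CreERT2:Rosa26mTmG hearts, in which a Wt1-driven inducible Cre turns the membrane Tomato reporter into membrane GFP in cells where it acts and in their descendants. The 3 Dsp_het libraries came from Wt1CreERT2:Rosa26mTmG:DspW/F hearts, which also carried 1 conditional allele of Dsp, the desmosomal plaque gene desmoplakin. Cells other than myocytes were sorted for EGFP, and transcript 3′ ends were captured in droplets; recombination of Dsp depends on Cre having acted in a given cell. The labels do not say how Cre was induced or whether a library was 1 heart, so p-values measure the spread between these libraries, which may be technical.

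The control libraries held 8, 7 and 20 of the 102 cells, and the Dsp_het libraries held 53, 11 and 3. Dsp_het library 1 therefore gave more than any other, and Dsp_het library 3 rests on 3 cells. The cells carried 792452 UMIs in all, with a median of 7122 per cell and a range from 1019 to 27551. The Pi16/Cd248-positive fibroblasts had a median of 7679. Whole libraries held between 7573157 and 17083660 UMIs. Of 13183 distinct barcode sequences in the series, 1689 occurred in several libraries, and 35 of the 102 cells had such a barcode.

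The values that chose the cells are given as a description only. All 7 fibroblast genes were present in 67 cells, 6 in 21, 5 in 10 and 4 in 4 cells. A further 39 barcodes with exactly 3 of the 7 genes met every other criterion and stayed outside. Msln and Upk3b were at 0 in 100 cells and at 1 UMI in 2. Dcn, a small leucine-rich proteoglycan, was present in 102 of 102 cells at 20863 CPM (counts per 1000000 UMIs), and Col1a1, a chain of type I collagen, in 99 cells at 1117 CPM. Lum was present in 94, Pdgfra in 85 and Dpep1 in 81 cells, and Tcf21, a fibroblast transcription factor outside the rule, in 75.

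Among all fibroblasts, 102 had 0 UMIs of Pi16 and Cd248 together, 67 had 1, 65 had 2 and 979 had 3 or more. The Pi16/Cd248-positive cells had a median of 11 such UMIs, with Pi16 alone in 755, both genes in 343 and Cd248 alone in 13. The 67 cells with exactly 1 UMI had a median depth of 7244 UMIs, close to the depth of the cells with none. Of 11280 barcodes that were not fibroblasts, 12.5% held a UMI of either gene at a median depth of 3966 UMIs, against 91.6% of fibroblasts at 7663. When each fibroblast was thinned to 1000 UMIs, 33.9% (411 of 1213) had neither gene. Why the 102 cells lacked both at full depth was not tested.

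**Figure D1:**
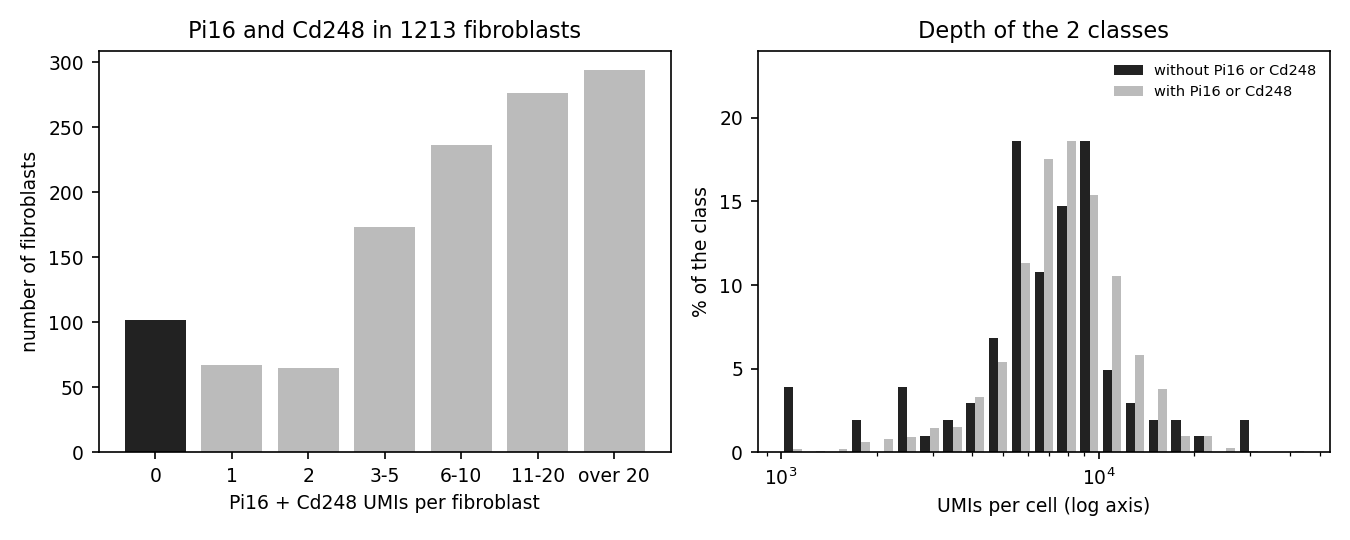
Left, number of fibroblasts by UMIs of Pi16 and Cd248 together, with the 102 fibroblasts at 0 in black. Right, UMIs per cell on a log axis for the 102 cells (black) and the 1111 Pi16/Cd248-positive fibroblasts (grey), as percent of each class; the medians are 7122 and 7679, and the distributions overlap.

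Several of the 102 cells carried transcripts of other cell types. UMIs of 3 or more of 10 markers of endothelial cells were found in 9 cells, of pericytes and smooth muscle cells in 7, of cardiac myocytes in 2 and of macrophages and monocytes in 1. In all, 14 cells exceeded this limit for at least 1 type, with 2, 1 and 4 in the control libraries and 4, 2 and 1 in the Dsp_het libraries. The same limit was exceeded by 128 of the 1111 Pi16/Cd248-positive fibroblasts. Adipocyte markers were at 0 for 8 of 8 genes and T and NK cell markers for 9 of 10. Among 10 mesothelial markers Krt7 and Muc16 were at 0, and 3 of the 102 cells had UMIs of 3 or more of the others, a type not used for the limit. No doublet caller was applied, so comparisons are also given without the 14 cells and without the 128.

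As a share of all barcodes, the 102 cells made up 0.344%, 0.452% and 0.694% in the control libraries. The Dsp_het libraries held 1.84%, 0.623% and 0.274%. The control values lay inside the Dsp_het range, and the means, 0.497% ± 0.179 in controls and 0.913% ± 0.824 in Dsp_het (SD, n = 3 each), gave no significant difference in a two-sided exact permutation test (p = 0.7, where 3 against 3 cannot go below 0.1). Without Dsp_het library 1 the log2 ratio of Dsp_het to control turned from 0.88 to -0.15, and without cells holding markers of another type it was 1.00 (exact permutation p = 0.7). In that library fibroblasts of both classes made up 21.7% of barcodes, against 5.12% to 8.31% in the other 5.

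As a share of fibroblasts, the cells without Pi16 or Cd248 made up 6.72%, 7.45% and 11.7% in the control libraries and 8.51%, 9.57% and 3.30% in the Dsp_het libraries. The highest value was a control and the lowest a Dsp_het library, and between them the remaining control libraries lay below the remaining Dsp_het libraries. The means were 8.62% ± 2.69 and 7.12% ± 3.36 (SD, n = 3 each, exact permutation p = 0.6), with a log2 ratio of -0.28, or -0.33 without cells holding markers of another type (exact permutation p = 0.6). The sign of the difference turned without control library 3 (log2 ratio 0.0078) or without Dsp_het library 3 (0.068). The 95% exact (Clopper-Pearson) interval of Dsp_het library 3, which covers counting error only, ran from 0.685% to 9.33% and spanned most other libraries.

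**Figure D2:**
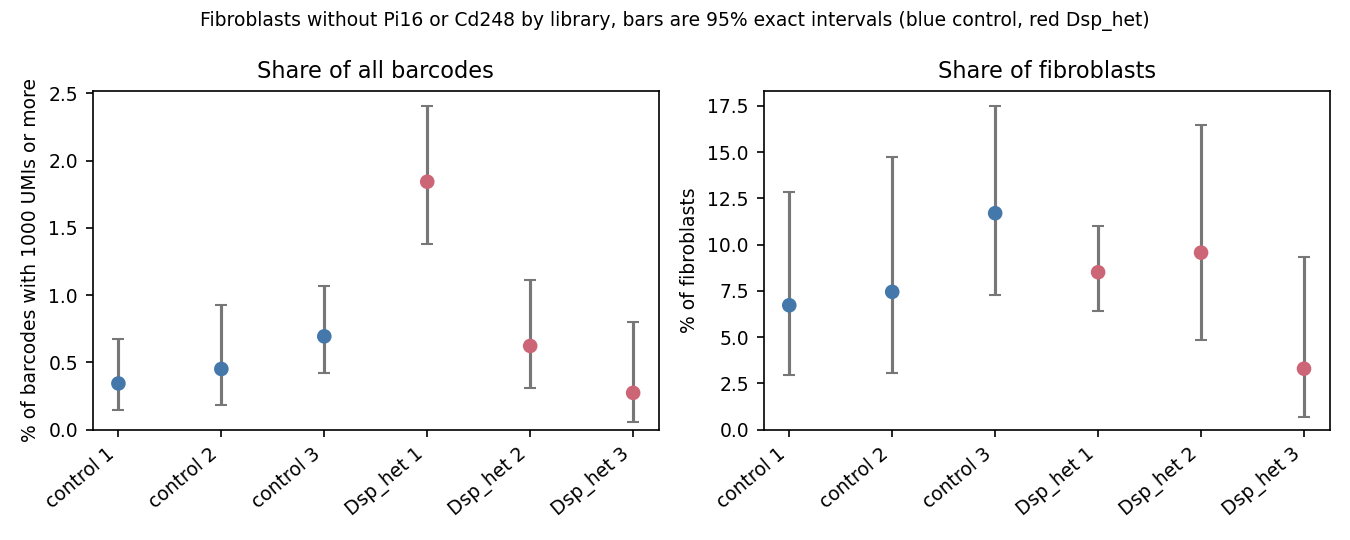
Share of the cells among all barcodes (left) and among fibroblasts (right) in each library, with 95% exact binomial intervals that cover counting error only. Dsp_het library 1 stands above the others on the left at 1.84% and lies among them on the right at 8.51%.

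The cells without Pi16 or Cd248 were compared with the Pi16/Cd248-positive fibroblasts of the same libraries, with UMIs summed per library and class. The classes were split on counts of these same cells, so the 11 genes of the rule were counted nowhere, and genes expressed together with Pi16 were not independent of the split. Of 5825 other genes tested with edgeR's quasi-likelihood test and library as a block, 87 passed an adjusted p of 0.05 (1.49%). Of these, 69 were lower (1.18%) and 18 were higher (0.309%) in the cells without Pi16 or Cd248. Without the cells that held markers of another type, 85 of 5223 genes passed (1.63%), 61 lower (1.17%) and 24 higher (0.46%), and 51 genes passed both times. DESeq2 called 67 of the 5825 (1.15%), of which 64 were among the 87.

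Among the decreases were Mfap5, Fbln2, Pcolce2 and Col14a1, which code for secreted proteins of the matrix. Mfap5, which binds fibrillin microfibrils, stood at 91.0, 269 and 272 normalized CPM (CPM after TMM scaling of the sums) in the control libraries and at 493, 583 and 384 in the Dsp_het libraries. In the Pi16/Cd248-positive fibroblasts it stood at 1557, 1058 and 1391 in controls and 1304, 1220 and 1990.1 in Dsp_het. All 6 libraries moved the same way and the classes did not overlap (log2 fold change -2.00 ± 0.22 SE, adjusted p = 8.47e-06, and -1.73 without cells holding markers of another type).

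Fbln2, a fibulin of elastic fibres and basement membranes, ranged from 193 to 435 normalized CPM against 616 to 1195 in the positive class, again lower in 6 of 6 libraries (log2 fold change -1.58 ± 0.15 SE, adjusted p = 1.37e-06). Pcolce2, which enhances procollagen C-terminal cleavage, ranged from 102 to 659 against 897 to 1323 (-1.67 ± 0.22 SE, adjusted p = 1.12e-04). Col14a1, a collagen that sits on fibril surfaces, ranged from 51.1 to 496 against 514 to 859.7 (-1.56 ± 0.20 SE, adjusted p = 7.31e-05). None of these 3 genes overlapped between the classes, and all 3 passed without cells holding markers of another type. How many of all genes tested had classes apart was not counted, so the lack of overlap here and for Mfap5 is a description only.

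Further decreases were found in genes at lower level. Aspn, the matrix proteoglycan asporin, averaged 31.3 ± 41.1 normalized CPM against 228 ± 59.7 (SD, n = 6 libraries), with no UMI in 3 of the 6 libraries. Sema3c, a secreted semaphorin, averaged 9.70 normalized CPM against 77.4, and Cilp, a matrix protein raised in cardiac fibrosis, 12.9 ± 12.5 against 61.7 ± 37.5. Stc2, a secreted glycoprotein, Timp1, a metalloprotease inhibitor, Metrnl, a secreted cytokine, Gfpt2, an enzyme of hexosamine synthesis, and Sulf2, a heparan sulfate endosulfatase, were lower by log2 fold changes of -2.16, -1.70, -1.60, -1.51 and -1.45. All 8 genes were lower in 6 of 6 libraries, and of them only Metrnl missed the threshold without cells holding markers of another type (adjusted p = 0.124). Leaving out 1 library at a time, the calls of Mfap5, Fbln2, Pcolce2, Col14a1, Aspn, Sema3c and Sulf2 held each time. Stc2 lost its call without Dsp_het library 1, 2 or 3, Metrnl without any of these or control library 3, Timp1 without control library 3 or Dsp_het library 1, Gfpt2 without control library 3 and Cilp without Dsp_het library 1.

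**Figure D3:**
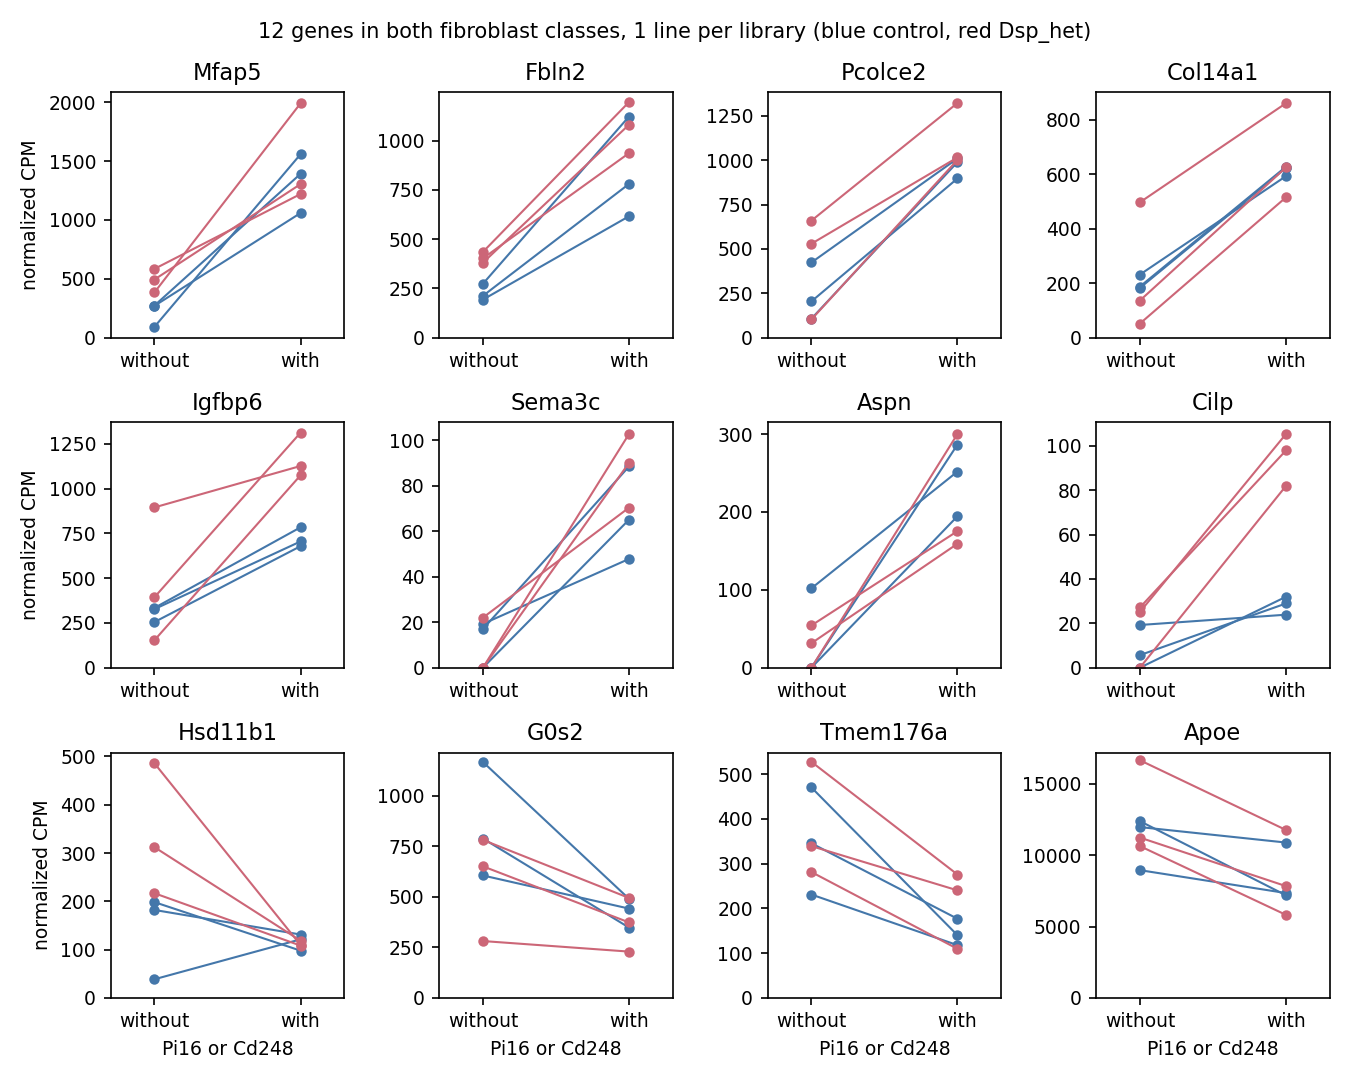
Normalized CPM of 12 genes in fibroblasts without and with Pi16 or Cd248, 1 line per library, blue for control and red for Dsp_het. The upper 8 genes fall to the left in 6 of 6 libraries; Hsd11b1 is higher without Pi16 or Cd248 in 5 libraries, and G0s2, Tmem176a and Apoe in 6.

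Of a list of 23 genes known from adventitial fibroblasts, 16 were tested, 13 were lower and 8 passed as lower, with none passing as higher. Their median log2 fold change was -0.87, against -0.02 over all genes. Pi16 and Cd248 themselves mark adventitial fibroblasts, so this list was not independent of the split and its lower values do not test it. Besides Sema3c and Gfpt2, those that passed were Igfbp6, an IGF binding protein (-1.26 ± 0.20 SE), Anxa3, an annexin (-1.34 ± 0.22 SE), Ackr3, a scavenging chemokine receptor (-1.58 ± 0.25 SE), Timp2 (-0.77 ± 0.14 SE), Clec3b (-0.96 ± 0.16 SE) and Dpp4, a membrane peptidase (-2.50 ± 0.54 SE). Igfbp6 of Dsp_het library 1, at 895 normalized CPM, reached into the positive range of 678 to 1312, and Ackr3 was higher in control library 2. Without cells holding markers of another type, 15 of 16 were lower and 11 passed, with a median of -1.23.

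In cells thinned to 1000 UMIs, Dpp4 had a UMI in 0 of 102 cells and in 6.12% of the Pi16/Cd248-positive fibroblasts, and Cilp in 0 and 6.03%. A count of 0 of 102 allows a share of up to 2.94% if the pooled cells are taken as independent. At full depth Dpp4 had a UMI in 4 of 102 and 255 of 1111 cells, and Cilp in 10 and 212. Igfbp3 had a thinned UMI in 24.5% of the cells against 13.0%, Penk in 17.6% against 9.63% and Clec3b in 69.6% against 86.5%. Among other genes of fibroblasts between muscle fibres, Cxcl14 (9.80% against 6.39%) and Apoe (95.1% against 88.3%) were higher. Smoc2 (54.9% against 63.3%) and Inmt (28.4% against 36.8%) were lower, and Col15a1 was level (31.4% against 30.8%). Fos, an immediate early gene, was at 55.9% and 56.3%, and Postn, a matrix protein of activated fibroblasts, at 3.92% and 3.42%. These shares are descriptions over pooled cells. By library, Penk was lower than in the positive class in control library 3 (5% against 9.27%) and Dsp_het library 3 (0% against 10.2%), and higher in the rest.

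Other matrix lists were also mostly lower. Of 43 matrix glycoprotein and crosslinking genes tested, 35 were lower and 14 passed as lower, with a median of -0.45, and of 25 proteases and inhibitors of the matrix 19 were lower and 8 passed (-0.46). Fibroblast identity genes other than those of the rule were lower in 23 of 26, with 13 passing as lower and Hsd11b1 passing as higher (-0.59). Among 17 collagens, Col14a1, Col1a2 (-0.60 ± 0.13 SE) and Col3a1 (-0.57 ± 0.13 SE) passed. Mfap4, a microfibril-associated protein (-1.31 ± 0.21 SE), and Nid1, a basement membrane linker (-0.90 ± 0.15 SE), were lower in 6 of 6 libraries. Serpinf1, a secreted anti-angiogenic serpin, passed as lower as well (-0.70 ± 0.14 SE), but missed the threshold without cells holding markers of another type (adjusted p = 0.292). Col1a2 and Col3a1 no longer passed without cells holding markers of another type (adjusted p = 0.497 and 0.797), nor without any single control library, Col3a1 also without Dsp_het library 3, and Serpinf1 lost its call without control library 3. The identity list without cells holding markers of another type had 8 passing as lower and a median of -0.32. Matrix glycoproteins then had 10 of 43 passing as lower and 2 as higher (-0.34), and proteases and inhibitors 3 of 25 as lower (-0.24). Of 17 collagens 10 were lower, Col14a1 passing, and Col6a3 and Col4a1 passed as higher (-0.08).

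Fewer genes were higher. Hsd11b1, which regenerates active glucocorticoid inside the cell, stood at 182, 38.5 and 198 normalized CPM in the control libraries and at 217, 312 and 486 in the Dsp_het libraries. In Pi16/Cd248-positive fibroblasts it stood at 131, 121 and 97.8 in controls and 108, 118 and 109.6 in Dsp_het. It was higher in 5 of 6 libraries, with control library 2 as the exception (log2 fold change 1.00 ± 0.23 SE, adjusted p = 0.0264). It was larger without cells holding markers of another type (1.47 ± 0.21 SE, adjusted p = 1.08e-07). With all cells the call was lost without control library 3 or without Dsp_het library 1, 2 or 3.

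G0s2, an inhibitor of adipose triglyceride lipase, stood at 1168, 789 and 606 normalized CPM in the control libraries and at 782, 651 and 281 in the Dsp_het libraries. The positive class of the same libraries stood at 490.5, 348 and 442 and at 495, 374 and 229. It was higher in 6 of 6 libraries (log2 fold change 0.80 ± 0.15 SE, adjusted p = 0.00495, and 1.05 without cells holding markers of another type). G0s2 and Hsd11b1 are neighbours on the minus strand of chromosome 1 in GRCm38, at chr1:193272161-193273217 and chr1:193221634-193264075. The first listed position of G0s2 lies 8086 bases from the last listed position of Hsd11b1. A UMI of Hsd11b1 was found in 46 of the 102 cells, of G0s2 in 83 and of both in 43. The share with a UMI was 45.1% for Hsd11b1 and 81.4% for G0s2, against 32.6% and 75.5% of Pi16/Cd248-positive fibroblasts and 0.399% and 2.25% of barcodes that were not fibroblasts.

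Tmem176a, a membrane protein, averaged 366 ± 113 normalized CPM against 177 ± 68.1 (SD, n = 6), and Apoe, the lipid carrier, 11973 ± 2591 against 8473 ± 2327. Both were higher in 6 of 6 libraries (log2 fold changes 1.05 ± 0.17 and 0.52 ± 0.12 SE), while without cells holding markers of another type Tmem176a passed (0.78, adjusted p = 0.0104) and Apoe did not (0.47, adjusted p = 0.096). Apoe also lost its call without control library 1, 2 or 3 or Dsp_het library 2, while those of Tmem176a and G0s2 held without each library in turn. The list of 20 genes of fibroblasts between muscle fibres had 9 higher and 11 lower, with Apoe and Hsd11b1 passing and a median of -0.01. Without those cells 14 of 20 were higher and 4 passed, with a median of 0.26. These were Hsd11b1, the opioid precursor Penk (0.77 ± 0.21 SE), the chemokine Cxcl12 (0.77 ± 0.21 SE) and the basement membrane collagen Col4a1 (0.60 ± 0.17 SE). Igfbp3, an IGF carrier, likewise passed only there (1.24 ± 0.20 SE, against 0.66 ± 0.25 SE with all cells).

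The remaining named increases were Pf4 (2.54 ± 0.33 SE), Stard8 (1.81 ± 0.39 SE), the immunoproteasome subunits Psmb10 (0.89) and Psmb8 (0.83), the calcineurin subunit Ppp3ca (0.83), the fatty acid carrier Fabp5 (2.28) and the BMP target Id1 (1.51). Without cells holding markers of another type, Psmb10, Psmb8, Ppp3ca, Fabp5 and Id1 did not pass (adjusted p from 0.419 to 0.907), and Pf4 and Stard8 were too low to be tested. With 1 library left out, Psmb10 lost its call without control library 2 or 3 or Dsp_het library 3, Psmb8 without control library 1 or 2 or Dsp_het library 1 or 3, Ppp3ca without control library 1 or 3 or Dsp_het library 1 or 3, and Stard8 without control library 1 or 3. Pf4 was highest in control library 3, at 555 normalized CPM against 25.6 to 54.3 in the other 5, the library in which macrophage markers summed to 2777 CPM. The secreted glycoprotein Fstl1 (-0.91), the interferon-induced Ifi27l2a and the matricellular Cyr61 (-0.89) were lower with and without those cells. Sfrp2, Ltbp4 and Serping1 passed as lower with all cells only (-0.98, -0.59 and -0.62). Without those cells they kept their direction but missed the threshold. Of these 6 genes only Fstl1 kept its call without each library in turn. Ifi27l2a lost it without control library 1 or 2 or Dsp_het library 1 or 2, and Cyr61 without control library 1 or any Dsp_het library. Sfrp2 lost it without any library but control 2, Ltbp4 without any control or Dsp_het library 1, and Serping1 without any control or Dsp_het library 3. Among MHC class I and antigen presentation genes 11 of 12 were higher and Psmb10 and Psmb8 passed (median 0.54, and 0.21 without those cells). Interferon response genes were higher in 12 of 17 with Ifi27l2a passing as lower (0.32, and -0.02 without those cells). Activated fibroblast genes were lower in 14 of 20 with 3 passing, WNT genes in 14 of 16 with 1, complement genes in 6 of 8 with 2, and TGF-beta and BMP genes in 18 of 28 with 2, Id1 passing as higher. Of 10 Hippo targets and 5 IGF binding proteins 1 each passed as lower. Of 14 adipogenic genes Fabp5 passed as higher, and of 17 lipid and retinoid genes Apoe and Hsd11b1. With all cells no call was made among 22 growth factors, 14 glucocorticoid targets, 20 epicardial transcription factors, 3 valve-like genes, 13 mitochondrially encoded genes or 7 desmosome and adherens junction genes, the last with 7 of 7 higher (0.50, and 0.08 without those cells). Over all genes tested 1.49% passed with all cells and 1.63% without those cells, so 0 or 1 call in a list of this size tells little. Without those cells Cxcl12 passed as higher among growth factors and Foxs1 (1.60) among epicardial transcription factors. Activated fibroblast genes then had 5 of 19 passing as lower, complement genes 2 of 7 as lower and 1 as higher, TGF-beta and BMP genes 1 each way of 26, WNT genes 0 of 15, Hippo targets 2 of 9 as lower and adipogenic genes 0 of 12. IGF binding proteins had Igfbp3 as higher and Igfbp6 as lower, and lipid and retinoid genes Hsd11b1 as higher and Ptgis as lower.

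Members of the immediate early, heat shock, unfolded protein response, cell cycle, oxidative phosphorylation, Notch and chemokine lists had no call in either direction with all cells. Over all genes tested 1.49% passed, so the absence of calls in such lists tells little. Without cells holding markers of another type, Klf2 (-1.11) and Klf4 (-0.77) of the immediate early list and Ccl2 (-2.50) of the chemokines were lower, and Hes1 of the Notch list (0.72) and the chemokine Cxcl12 were higher.

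**Figure D4:**
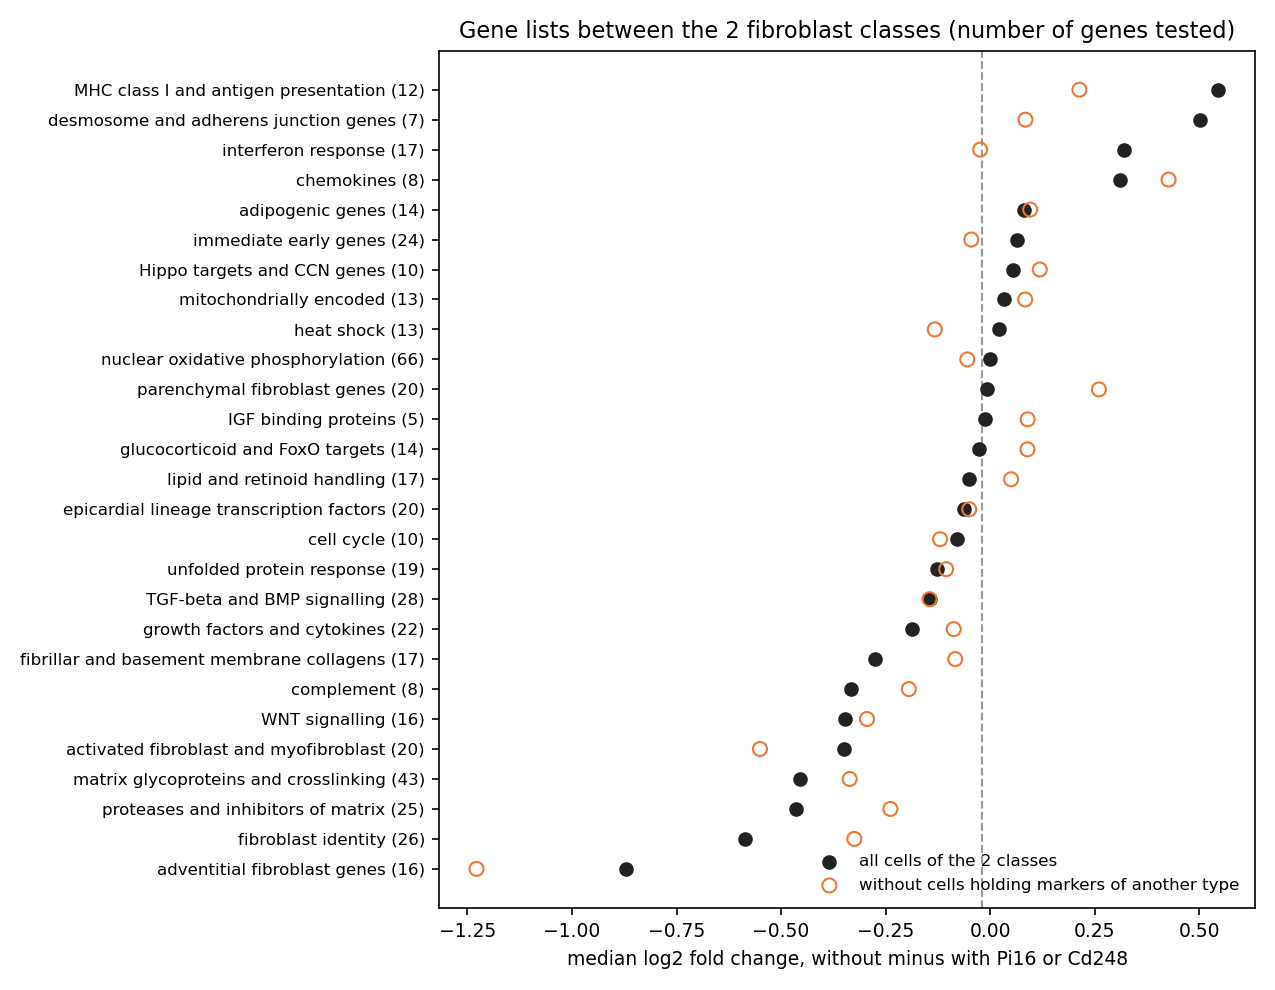
Median log2 fold change of each gene list with at least 5 genes tested between the classes (negative means lower without Pi16 or Cd248), for all cells (filled) and without cells holding markers of another type (open), with the number of genes tested in brackets and the median of all genes as a dashed line. The adventitial list lies farthest left at -0.87 and -1.23, and was not independent of the split on Pi16 and Cd248.

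Within the 102 cells, 4 stood apart by Pnoc, the precursor of nociceptin, and Cxcl13, a chemokine that attracts B cells. They came from control library 1, control library 3 and Dsp_het library 1, which held 2, and had 15164, 17182, 11041 and 22331 UMIs. Their Cxcl13 counts were 556, 317, 113 and 481 UMIs, 1467 of the 1500 in all 102 cells, and the largest count in any of 5 further cells was 17. Pnoc counts were 69, 7, 7 and 21 UMIs, with none in the other 98 cells, in 1 of 1111 Pi16/Cd248-positive fibroblasts and in 4 of 11280 other barcodes.

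These 4 cells had 4 or 5 of the fibroblast genes, among them Dcn at 47 to 241 UMIs and Col1a1 at 8 to 21. Gsn was at 2 to 4 UMIs and Dpep1 at 0. Fibronectin, Fn1, was at 34 to 66 UMIs per cell, 3241 CPM against 33.0 in the other 98, and the WNT ligand Wnt4 at 700 CPM against 16.5. Enpp2, which makes lysophosphatidic acid, stood at 2237 CPM against 228, Il34, a ligand of the macrophage receptor Csf1r, at 320 against 1.38, and Wt1 itself at 259 against 16.5. The 4 cells were singled out after their counts had been seen, so these values carry no test. All 4 were among the 14 cells with markers of another type. Without the cells with Pnoc, 65 of 5676 genes differed between the classes, and 60 of these were among the 87. Of the 65, 57 were lower and 8 higher, against 69 and 18 with all cells. Of the Fabp5 UMIs, 297 lay in the 4 cells and 218 in the other 98. Fn1, at a log2 fold change of 0.94 with all cells (adjusted p = 0.137), was at -1.72 without the cells of either class that held markers of another type (adjusted p = 1.74e-04).

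Dsp was checked first between genotypes. It had 0 UMIs in the 102 cells in each of the 6 libraries, and 6 UMIs in the 1111 positive fibroblasts. The 0 allows up to 2.94% of cells with a UMI if the pooled cells are taken as independent. By library it allows from 8.25 CPM in Dsp_het library 1 to 85.4 CPM in Dsp_het library 3. The labels do not say which part of the gene the conditional allele removes, so these counts check neither the loss nor its absence. Wt1 had 29 UMIs in 11 cells, all in control libraries 1 and 3 and Dsp_het library 1, and Tomato had 4 UMIs, all in control library 3.

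GFP had a UMI in 82 of the 102 cells. It stood at 457, 521 and 658 CPM in the control libraries and at 1097, 319 and 228 in the Dsp_het libraries. The highest and the 2 lowest values were Dsp_het, and the means of 545 ± 103 and 548 ± 477 (SD, n = 3 each) gave no significant difference (two-sided exact permutation p = 1). Without Dsp_het library 1 the log2 ratio was -0.99, with both remaining Dsp_het values below all controls. The exact permutation p was then 0.2, the lowest that 3 against 2 libraries can reach. Without cells holding markers of another type the log2 ratio was -0.45 (exact permutation p = 0.4).

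Between genotypes, 4 of 1095 testable genes differed (0.365%), all lower in Dsp_het, and none was higher. They were Cdh5, the cadherin of endothelial junctions, Egfl7, a factor secreted by endothelium, Cav1, the caveolar coat protein, and Slc9a3r2, a scaffold protein. Cdh5 stood at 692, 208 and 320 normalized CPM (here relative to the UMIs of tested genes) in the control libraries and at 15.3, 0 and 0 in Dsp_het (log2 fold change -4.97 ± 0.71 SE, adjusted p = 0.0175). Egfl7 stood at 627, 573 and 290.5 against 53.6, 37.2 and 42.1 (-3.22 ± 0.44 SE, adjusted p = 0.0175). Cav1 stood at 735, 391 and 350.1 against 30.6, 55.8 and 0 (-3.81 ± 0.52 SE, adjusted p = 0.0175). Slc9a3r2 stood at 692, 208 and 379.9 against 61.3, 55.8 and 42.1 (-2.85 ± 0.48 SE, adjusted p = 0.0477). The groups did not overlap for any of the 4, which was also a condition for naming the largest changes. How many of the 1095 genes had groups apart was not counted, so this is a description only. DESeq2 called 6 genes (0.548%), all lower, the same 4 among them.

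The 10 endothelial markers, Cdh5 and Egfl7 included, moved with these genes and were all detected. They summed to 13431, 2459 and 4452 CPM in the control libraries and to 549.7, 319 and 171 in the Dsp_het libraries, and 1930 of their 2133 UMIs lay in the 9 cells with 3 or more of them. These 9 cells were split as 1, 1 and 3 over the control libraries and 2, 2 and 0 over the Dsp_het libraries. A single cell held 718 of the 724 Fabp4 UMIs of control library 1, so the library values rest on very few cells. In the Pi16/Cd248-positive fibroblasts the same markers summed to 656, 1511 and 1866 CPM in controls and to 609, 466 and 629 in Dsp_het. The lower Dsp_het values were therefore not particular to the cells without Pi16 or Cd248. Without the 14 cells with markers of another type, the sums in the rest of the 102 cells were 238, 144 and 166 CPM in controls and 190, 309 and 194 in Dsp_het. That limit takes out every cell with 3 or more of these same 10 markers, so a drop of the sums follows from the selection. Cdh5 was then left with 1 UMI, in Dsp_het library 1, and Slc9a3r2 with 5 UMIs in controls and 14 in Dsp_het. Of the 719 genes testable without those cells, edgeR called 0 (0%), with 14 at an unadjusted p under 0.05. The 4 genes were not among the 719, so their change was not tested there. With all cells, the 4 genes lost their calls without control library 1, Dsp_het library 1 or Dsp_het library 2. All 4 kept them without control library 2, and 3 of the 4 without Dsp_het library 3. Only 2 of the 4 could be tested without control library 3, and both passed. Lower values that missed the threshold included the fatty acid carrier Fabp4 (-4.21, adjusted p = 0.121), Cavin2, Anp32a, Id1, Nrp1 and Msn (adjusted p from 0.239 to 0.532).

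**Figure D5:**
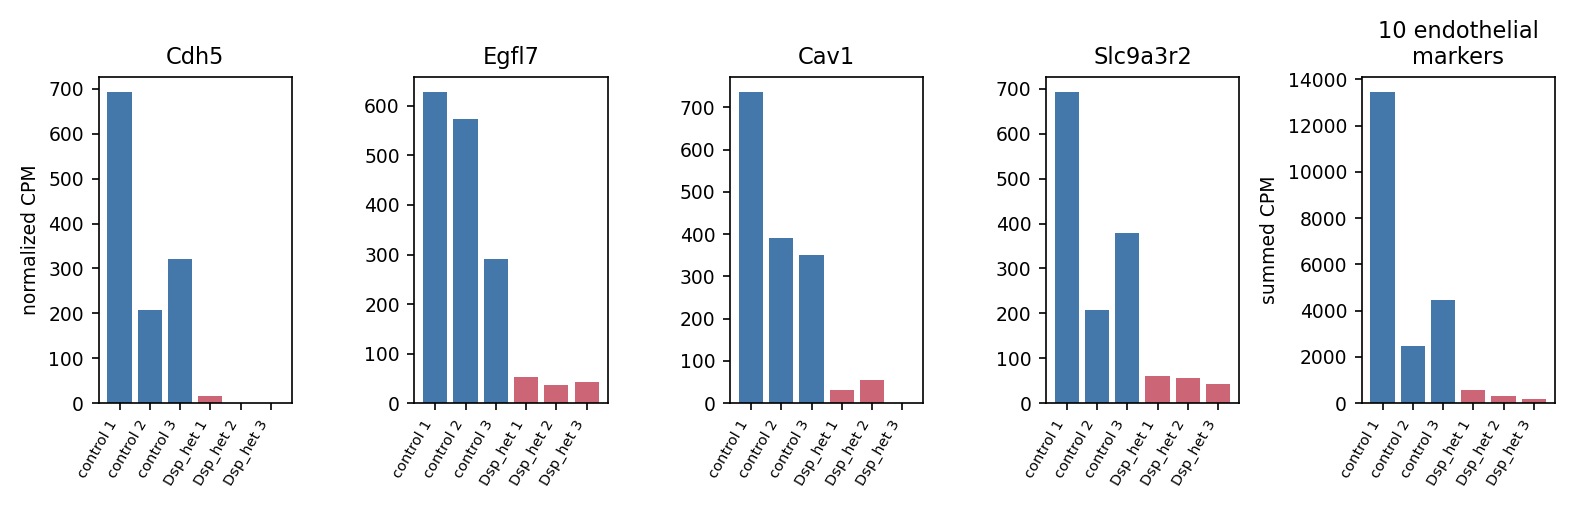
The 4 genes called between genotypes (normalized CPM) and the summed CPM of 10 endothelial markers in the cells without Pi16 or Cd248, by library. The 3 control libraries (blue) are above the 3 Dsp_het libraries (red) in each panel, and control library 1 is highest in each.

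The smallest p-values in the other direction belonged to Loxl1, a crosslinking enzyme of elastin, Tcf21, a fibroblast lineage transcription factor, Mfap5, Lrp1, Medag, Rarres2, Tnxb, Prelp, Bmp4 and Fbln2, and all 10 missed the threshold. Loxl1 stood at 411, 313 and 305 normalized CPM in controls and at 559, 911 and 1053 in Dsp_het (log2 fold change 1.24 ± 0.32 SE, adjusted p = 0.451). Tcf21 stood at 303, 443 and 425 against 731, 706 and 801 (0.91 ± 0.26 SE, adjusted p = 0.558). The groups did not overlap for Loxl1 and Tcf21, which is again a description only. Without the 14 cells the log2 fold changes of Loxl1 and Tcf21 were 0.97 and 0.22, each at an adjusted p of 0.993. Col1a1, 1 of the genes that chose the cells and so given as a description only, stood at 1211, 1042 and 1289 normalized CPM in controls and 1854, 1654 and 1812 in Dsp_het (log2 fold change 0.58, and 0.24 without the 14 cells).

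Of 21 fibroblast identity genes tested, 20 were at higher values in Dsp_het and none passed, with a median log2 fold change of 0.54 against -0.01 over all genes. Without the 14 cells, 11 of 19 were higher, with a median of 0.22 against 0.01. Igfbp3 stood at 259.6, 2475 and 246 normalized CPM in controls and at 639.6, 372 and 548 in Dsp_het (-0.82 ± 0.80 SE, adjusted p = 0.907), and without control library 2 its log2 fold change was 1.08. Adventitial genes had 5 of 7 at higher values and 0 calls, and the list of fibroblasts between muscle fibres 9 of 16 and 0 calls. Over all 1095 genes tested 0.365% passed, none as higher, so 0 calls in lists of this size tell little. Acta2, Postn, Cilp, Comp, Ccl11, Pparg, Tbx18 and the ligands Tgfb1, Tgfb2, Tgfb3, Fgf1 and Fgf2 were too low to be tested. Of 46 Postn UMIs 23 lay in Dsp_het library 3, of 45 Acta2 UMIs 39 in control library 3 and of 58 Ccl11 UMIs 57 in Dsp_het library 1.

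Whether the genotype difference itself differed between the classes was tested as an interaction over the 12 sums. Of 6995 genes, edgeR called 0 (0%), with 296 at an unadjusted p under 0.05, and DESeq2 also called 0. The lowest adjusted p was 0.155, shared by Adgrf5, Cav1, Rsad2 and Nmrk1. Pecam1, Cavin2 and Slc9a3r2 were among the 10 smallest, with log2 interactions of -3.72, -1.91 and -2.10. With 1 library left out the count was 9, 37 and 39 without control libraries 1, 2 and 3, 6 without Dsp_het library 1 and 0 without Dsp_het library 2 or 3, and it stood at 6 of 6440 (0.0932%) without cells holding markers of another type, 1 higher (0.0155%) and 5 lower (0.0776%).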

How the data were processed

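Cells were taken from the authors' deposited matrix of raw UMI counts (31055 genes, 18283 barcodes), whose column sums equalled the deposited total counts for all 18283 barcodes. Deposited columns also hold genes per barcode, barcodes and gene symbols. GRCm38 and Seurat are named per the submitters' processing notes, and for the aligner and the counting program the sources used here give nothing. Barcode suffixes were assigned to libraries through the numbers in the sample descriptions. The rule, the members and the 29 gene lists were chosen with earlier results of these data known.

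Counts were summed per library (35130 to 363852 UMIs for the 102 cells). Sums were fitted with edgeR 4.0.16 (R 4.3.3) by quasi-likelihood after TMM and filterByExpr with a minimum count of 10, two-sided, with Benjamini-Hochberg adjustment over all genes tested and a threshold of 0.05. The class comparison and the interaction had library as a block. DESeq2 1.42.0 was an alternative, and others changed normalization, filters, cells, depth and libraries. Single values were compared by exact permutation (scipy 1.17.1). Log2 fold changes are given with their SE, and fitted folds of genes at 0 depend on the prior count.

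Named genes were the 12 largest changes per direction that passed, at a mean of at least 20 CPM and with groups apart or all 6 libraries in 1 direction, up to 4 passing members per list, the 10 smallest p where few passed, and a fixed set. Penk, Cxcl12, Col4a1, Igfbp3 in the class comparison, Clec3b, Dpp4, Fn1, Pnoc and Cxcl13 were named after their values were seen. 1 member of a list that qualified for naming is not reported here. Gene positions are from GENCODE vM21. On simulated counts the genotype fit recovered 96.5% of 4-fold and 41.0% of 2-fold changes (1077 genes), the class fit 94.5% and 56.0% (5808 genes) and the interaction fit 21.9% and 2.06% (6884 genes). These shares are of the changed genes that could be tested. The simulation gave all genes the same dispersion and held no differences between single cells. The shares therefore need not hold for the real sums, in which few cells can carry a gene.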

Additional observations from a re-analysis of the deposited data

How the results depend on the processing

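The number of genes called between genotypes, 4, depended on the cells and filters: it was 6 with DESeq2, 4 with DESeq2 size factors, 3 with at least 2000 UMIs, 105 (12 higher, 93 lower) with no filter on low counts, and 0 with a minimum count of 30, with at least 5 of 7 fibroblast genes, with cells thinned to 1000 UMIs (137 genes tested) and without cells holding markers of another type; the 4 genes were not among those tested in any of these 4 settings. Alternatives added after seeing the data gave 2 without the cells with Pnoc and 15 (2 higher, 13 lower) with up to 1 UMI of Pi16 or Cd248 allowed. Leaving out single libraries gave 0 to 14; the 1 call without Dsp_het library 1 was another gene, higher. Of 39 genes named in the class comparison, 19 kept their call without each library in turn, and none changed sign. The class count of 87 was 67 with DESeq2 and 20 of 978 genes thinned to 1000 UMIs, 19 of them among the 87, and ranged from 43 (without control library 3) to 87 over libraries left out, with 57 without control library 1. The interaction count of 0 was 6 without cells holding markers of another type, an alternative added later, and 0 to 39 over libraries left out. The log2 ratio of the share of barcodes ranged from -0.15 to 1.31 and that of the share of fibroblasts from -0.55 to 0.068 over libraries left out. That of GFP was 0.0080, ranged from -0.99 to 0.38, and was -0.16 with at least 5 of 7 fibroblast genes, -0.45 without cells holding markers of another type and -0.18 with up to 1 UMI allowed. The edgeR log2 fold change of GFP, 0.10, was -0.045, -0.26 and -0.081 under the same settings and ranged from -0.97 to 0.40; Igfbp3 ranged from -1.36 to 1.08, and Col1a1 was -0.10 thinned. Col1a1 helped choose the cells and is a description. None of the GFP and Igfbp3 values passed the threshold, and the cause of each change was not tested.

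Control and Dsp_het libraries share replicate numbers, but nothing says that a number pairs them, and the deviations of same-numbered libraries correlated at 0.11, 0.06 and -0.03. With the replicate block 7 genes were called between genotypes, all lower, the log2 fold change of GFP was -0.19, and the log2 ratio of the share of barcodes, 0.88, gave p = 0.75 in an exact sign-flip permutation test, where 3 pairs cannot go below 0.25. Depth limits the genotype comparison: Dsp_het library 3 had 3 cells and 35130 UMIs, and 1095 genes could be tested.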
